A study of Mus musculus with 6 samples.

Results

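The tectorial membrane is the extracellular sheet that lies over the hair cells (HCs) of the cochlea and is needed for sound to deflect their stereocilia. Its non-collagenous matrix is built from α-tectorin (*Tecta*) and β-tectorin (*Tectb*), the large glycoproteins otogelin (*Otog*) and otogelin-like (*Otogl*), and CEACAM16 (*Ceacam16*), an adhesion-molecule-like secreted protein. Otoancorin (*Otoa*) is not part of the sheet but sits on the cells of the spiral limbus to which the sheet is attached. Non-sensory epithelial cells of the cochlear duct make these proteins, and the tectorins are laid down before the onset of hearing, so a developing cochlea is where their transcripts are found. Expression of these 6 genes was followed in the cochlear duct of *Gfi1cre/+* and *Gfi1+/+* mice, among 14865 genes listed in the deposited table. They were taken by gene symbol as a group with a shared role, and all 6 were listed and passed the minimum for testing of 40 normalized reads in 1 or more libraries.

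RNA was sequenced from the cochlear duct of C57BL/6 mice at postnatal day 8 in 3 *Gfi1+/+* and 3 *Gfi1cre/+* libraries. In *Gfi1cre/+* mice 1 copy of *Gfi1*, a transcriptional repressor that HCs require, is replaced by Cre recombinase. A *Gfi1+/+* library came from the 2 cochleae of 1 mouse, whereas a *Gfi1cre/+* library pooled 6 cochleae of 3 mice, so the spread between *Gfi1+/+* libraries is a spread between mice and the spread between *Gfi1cre/+* libraries is one between pools. The Cre line is also known to be active in immune cells. The values are read counts divided by 1 size factor per library, called normalized reads and given below in the order of replicates 1, 2 and 3 of each genotype. Between 13603908 and 19359753 reads per library were counted on genes. Markers of the labelled tissue were present, beside those of other tissue. Epithelial markers (6 of 6 listed) summed to between 21100 and 22347 normalized reads per library, HC markers (10 of 10 listed) to between 10041 and 11517, and the listed skeletal muscle markers (2 of 6) to at most 34.9. Bone markers (6 of 6 listed) summed to between 22960 and 49288, and vestibular non-sensory markers (4 of 4 listed) to between 10477 and 15099. Most of the vestibular sum was a single gene, *Oc90*, with between 9679 and 14154 normalized reads. *Gfi1+/+* replicate 1 stood apart in nervous tissue, with neuron markers (7 of 7 listed) at 8926 normalized reads in sum against between 2081 and 3242 in the other *Gfi1+/+* libraries and between 1633 and 2412 in *Gfi1cre/+*. Y-linked transcripts differ between the genotypes in these libraries, so sex and genotype cannot be told apart. *Gfi1* itself had 147, 160 and 152 normalized reads in *Gfi1+/+* and 136, 130 and 139 in *Gfi1cre/+* (log2 fold change -0.18, adjusted p = 0.999, limma). The *Gfi1* count also covers exons that the knock-in allele keeps.

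In the annotation of GRCm38 (mm10), *Tecta* (ENSMUSG00000037705) lies on the minus strand of chromosome 9 from 42329619 to 42399929, and its longest coding transcript has 24 exons. *Tectb* (ENSMUSG00000024979) lies on the plus strand of chromosome 19 from 55180733 to 55196313 and has 10 exons. *Otog* (ENSMUSG00000009487) runs from 46240987 to 46311434 on the plus strand of chromosome 7 and has 56 exons. *Otogl* (ENSMUSG00000091455) runs from 107760531 to 107912134 on the minus strand of chromosome 10 and has 58 exons. *Ceacam16* (ENSMUSG00000014686, 19852097 to 19861299 on the minus strand, 6 exons) and *Otoa* (ENSMUSG00000034990, 121081650 to 121163097 on the plus strand, 29 exons) are also on chromosome 7. The paralogues thus lie on different chromosomes, *Tecta* apart from *Tectb* and *Otog* apart from *Otogl*. An antisense transcript on the opposite strand, *Gm47629*, shares 4.10% of the exon bases of *Tecta*, and the opposite-strand gene *Gm19345* shares 23.2% of those of *Ceacam16*. The strand setting of the counting is not given in the sources used here, so reads in the shared bases could not be assigned to a strand. *Gm19345* had between 25.1 and 45.3 normalized reads per library.

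The sequences just before the annotated starts of *Tecta*, *Tectb* and *Otog* are shown because the tectorins and otogelin had different patterns across the libraries, as given below. A link between these sequences and the patterns was not tested. Each is 200 bases from RefSeq on GRCm38.p6, read 5′ to 3′ on the strand of the gene and ending at the base before a start. Capitals mark AATC, the core of the motif that GFI1 binds, or its reverse complement GATT. The *Tecta* window is chr9:42399948-42400147, the *Tectb* window is chr19:55180526-55180725 and the *Otog* window is chr7:46240787-46240986.
Tecta: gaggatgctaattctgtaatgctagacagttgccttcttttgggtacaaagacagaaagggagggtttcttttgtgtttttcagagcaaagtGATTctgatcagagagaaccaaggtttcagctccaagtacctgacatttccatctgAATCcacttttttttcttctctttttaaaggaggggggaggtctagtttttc
Tectb: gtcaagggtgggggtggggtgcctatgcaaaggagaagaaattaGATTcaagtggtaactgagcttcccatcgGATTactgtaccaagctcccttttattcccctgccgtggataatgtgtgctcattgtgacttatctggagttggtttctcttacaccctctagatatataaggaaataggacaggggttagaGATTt
Otog: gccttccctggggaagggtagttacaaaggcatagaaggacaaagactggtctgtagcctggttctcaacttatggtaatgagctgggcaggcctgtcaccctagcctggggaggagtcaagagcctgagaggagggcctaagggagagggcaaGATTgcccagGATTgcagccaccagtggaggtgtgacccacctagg

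The motif AATC, searched on both strands, occurred 2 times in the *Tecta* window, 3 times in the *Tectb* window and 2 times in the *Otog* window. It is short, and 61.0% of the 32851 promoter windows of 200 bases in the same table held it at least once. The letters TATAAA, searched on both strands, were in none of these windows and in 9.96% of all windows. Only these exact letters were searched, so variant spellings, such as the tatataag in the *Tectb* window, were not counted. GC content was 40.5% for *Tecta*, 45.0% for *Tectb* and 57.0% for *Otog*. RefSeq entries were matched for 4 of the 6 genes. A second *Tecta* entry starts upstream at chr9:42401691-42401890 and held the motif AATC 1 time. The *Otoa* entry overlapped annotated exons and is not shown. A match of these letters is a description of the sequence and not evidence of a binding site.

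*Tectb* was by far the most abundant of the 6 transcripts, and *Ceacam16* the least. Levels of different genes were compared as normalized reads per kilobase of exon. *Tectb* had 12509 ± 2060 (SD, n = 6 libraries) and ranked between 37 and 66 of the 14388 genes with a length in every library. *Otoa* followed with 1068 ± 92.7, then *Tecta* with 803 ± 308, *Otog* with 668 ± 36.9, *Otogl* with 184 ± 12.6 and *Ceacam16* with 76.1 ± 17.0, all per kilobase. The ranges over libraries did not overlap between *Tectb* and *Otoa*, between *Otog* and *Otogl* or between *Otogl* and *Ceacam16*. They did overlap for *Tecta*, which ran from 445 to 1299 per kilobase and so spanned both of its neighbours, *Otoa* (922 to 1151) and *Otog* (618 to 716). *Tecta* was above *Otog* per kilobase in 4 of the 6 libraries. The length of *Otoa* rests on the annotation. Its exons hold 8439 bases in union, which include a retained intron, whereas its longest coding transcript has 3773 bases. With that length *Otoa* came to 2390 ± 207 per kilobase and no longer overlapped *Tecta*.

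**Figure D1:**
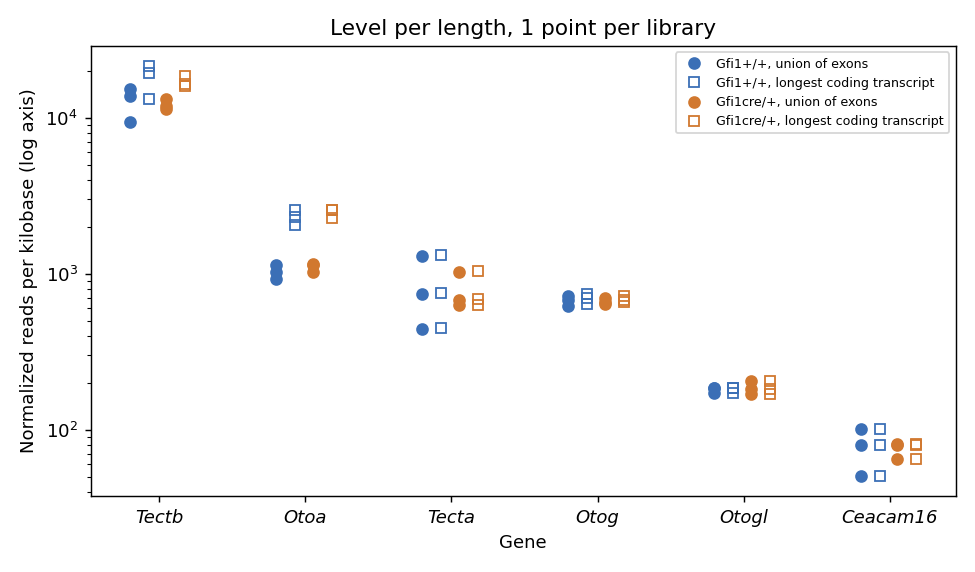
Level of each gene as normalized reads per kilobase on a log axis, with 1 point per library, blue for *Gfi1+/+* and orange for *Gfi1cre/+*. Filled circles use the union of exons and open squares the longest coding transcript. *Tectb* lies above all others, the *Tecta* points spread from 445 to 1299, and *Otoa* rises from 1068 to 2390 on average with the coding length.

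Together, the 6 genes took between 0.340% and 0.504% of the reads of a library, most of it *Tectb*, which alone took between 0.211% and 0.350%. The share was lowest in *Gfi1+/+* replicate 3 and highest in *Gfi1+/+* replicate 2. Both extremes of this share were therefore found among single *Gfi1+/+* mice.

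*Tecta*, which encodes the larger tectorin, varied most. It had 5506, 9628 and 3299 normalized reads in *Gfi1+/+* and 4656, 7597 and 5031 in *Gfi1cre/+*. The highest and the lowest library were both *Gfi1+/+*, 2.92-fold apart, and the 3 *Gfi1cre/+* pools lay between them with a 1.63-fold range. On the log2(normalized reads + 1) scale its SD was 0.773 between *Gfi1+/+* libraries, larger than in 98.1% of the genes tested, and 0.380 between *Gfi1cre/+* libraries, larger than in 97.7%. The median SD over genes was 0.119 and 0.0737, respectively. Each *Tecta* value rests on at least 3128 reads, so counting error is small beside this spread.

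*Tectb*, the smaller tectorin that shares the zona pellucida domain, had 52717, 58321 and 35886 normalized reads in *Gfi1+/+* and 43706, 50855 and 45221 in *Gfi1cre/+*. It too was highest in *Gfi1+/+* replicate 2 and lowest in *Gfi1+/+* replicate 3, with a 1.63-fold range in *Gfi1+/+* and a 1.16-fold range in *Gfi1cre/+*. Its SD on the log2 scale was 0.370 between *Gfi1+/+* libraries, larger than in 92.9% of genes, and 0.115 between *Gfi1cre/+* libraries, larger than in 71.8%. The order of the 6 libraries was the same for both tectorins except that *Gfi1+/+* replicate 1 and *Gfi1cre/+* replicate 2 changed places.

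Across the 6 libraries, log2 levels of *Tecta* and *Tectb* had Pearson's r = 0.930 (exact permutation p = 0.0111, two-sided, n = 6 libraries) and Spearman's rho = 0.943 (exact permutation p = 0.0167). Among the 15 pairs of the 6 genes, none passed 0.05 after Benjamini-Hochberg adjustment, and this pair had an adjusted p of 0.167 for r and 0.250 for rho from the same exact permutation tests. Without *Gfi1+/+* replicates 2 and 3, the libraries farthest from the median of *Tecta*, r was 0.682 over the remaining 4, so the relation rests largely on those libraries. A correlation within each genotype was not computed, as 3 libraries are too few. The tectorins did not change in proportion. The ratio of *Tecta* to *Tectb* normalized reads was 0.104, 0.165 and 0.0919 in *Gfi1+/+* and 0.107, 0.149 and 0.111 in *Gfi1cre/+*, so that *Tecta* was higher relative to *Tectb* in the 2 libraries where *Tecta* itself was highest.

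*Otog*, the otogelin gene, was far more even. It had 7020, 6399 and 7414 normalized reads in *Gfi1+/+* and 6591, 7223 and 6850 in *Gfi1cre/+*. Its *Gfi1+/+* extremes were the same libraries as for the tectorins but in the reverse order, with replicate 2 lowest and replicate 3 highest, although only 1.16-fold apart. The SD of *Otog* on the log2 scale was 0.107 in *Gfi1+/+* and 0.0663 in *Gfi1cre/+*, both below the medians over genes. *Otogl* had 1633, 1631 and 1515 normalized reads in *Gfi1+/+* and 1490, 1800 and 1591 in *Gfi1cre/+*, and it was the only one of the 6 genes with a wider SD in *Gfi1cre/+* (0.138) than in *Gfi1+/+* (0.0622). The ratio of *Otog* to *Otogl* normalized reads stayed between 3.92 and 4.89 in all libraries.

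*Otoa*, which encodes the attachment protein otoancorin, had 8675, 7777 and 9638 normalized reads in *Gfi1+/+* and 8648, 9717 and 9648 in *Gfi1cre/+*. As for *Otog*, *Gfi1+/+* replicate 2 was the lowest library. *Ceacam16* had 131, 82.7 and 166 normalized reads in *Gfi1+/+* and 131, 130 and 107 in *Gfi1cre/+*. Again replicate 2 was lowest and replicate 3 highest, and the SD of 0.505 on the log2 scale was larger than in 96.0% of genes. *Ceacam16* is the member with the fewest reads. The 79 reads of *Gfi1+/+* replicate 2 give an exact Poisson 95% interval of 65.5 to 103 normalized reads and the 157 reads of replicate 3 give 141 to 194, so the difference between these libraries exceeded counting error, which is all that such intervals cover.

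Thus, in 5 of the 6 genes the *Gfi1+/+* extremes were replicates 2 and 3, but the tectorins were high where *Otog*, *Otoa* and *Ceacam16* were low. For *Otog* and *Otoa* this opposition was not seen in *Gfi1cre/+*, whereas *Ceacam16* was highest of that genotype in replicate 1, where both tectorins were lowest. There, replicate 2 had the highest value in 5 of the 6 genes and replicate 1 the lowest value in 5 of the 6, with *Ceacam16* as the exception in both. The share of all genes tested with the same extremes was not computed for either genotype.

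**Figure D2:**
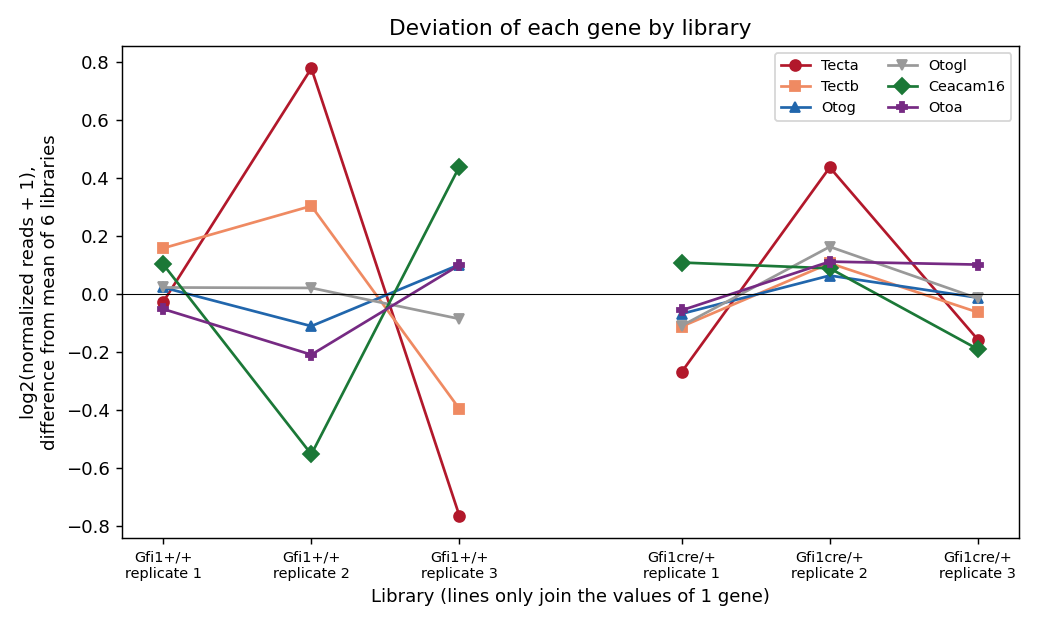
Deviation of each gene from its mean over the 6 libraries, in log2(normalized reads + 1), with the library on the x axis and 1 line per gene. *Tecta* reaches 0.78 in *Gfi1+/+* replicate 2 and -0.77 in replicate 3, *Ceacam16* runs the other way with -0.55 and 0.44, and *Otogl* stays within 0.164 of its mean.

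**Figure D3:**
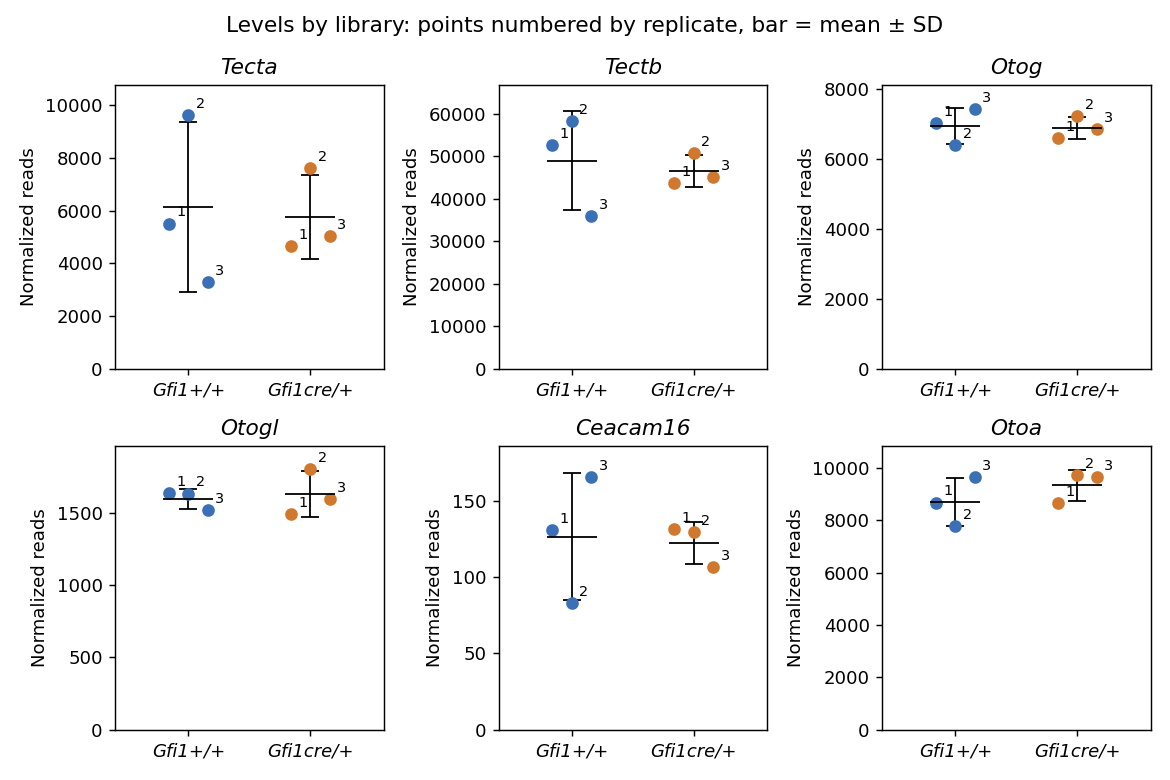
Normalized reads of the 6 genes in each library, with points numbered by replicate, the horizontal bar at the mean and the error bar at 1 SD (n = 3 libraries per genotype). For *Tecta* the *Gfi1+/+* points lie from 3299 to 9628 and enclose all *Gfi1cre/+* points, whereas for *Otog* all 6 points lie between 6399 and 7414.

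Expression of the 6 genes was next compared between the genotypes, to see whether the loss of 1 *Gfi1* copy was accompanied by a change in the genes of the tectorial membrane. None of the 6 genes had an adjusted p-value under 0.05 (limma, adjusted by Benjamini-Hochberg across 14455 genes), where 4 genes, or 0.0277%, did so among all genes, and none had an unadjusted p-value under 0.05, where 3.04% of all genes did. On the recovered reads, edgeR and DESeq2 likewise called 0 of the 6 at either threshold. The libraries of the genotypes overlapped in all 6 genes, and 7.52% of all genes did not overlap. In 4 of the 6 genes (*Tecta*, *Tectb*, *Otog* and *Ceacam16*) the 3 *Gfi1cre/+* values lay inside the *Gfi1+/+* range.

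Mean levels were close in each gene. *Tecta* had 5761 ± 1601 normalized reads (SD, n = 3) in *Gfi1cre/+* and 6145 ± 3212 in *Gfi1+/+*, *Tectb* 46594 ± 3767 and 48975 ± 11676, and *Otog* 6888 ± 318 and 6944 ± 512. *Otogl* had 1627 ± 158 in *Gfi1cre/+* and 1593 ± 67.8 in *Gfi1+/+*, *Ceacam16* 123 ± 13.8 and 126 ± 41.6, and *Otoa* 9337 ± 598 and 8697 ± 931. The log2 fold change, *Gfi1cre/+* against *Gfi1+/+*, was between -0.04 and 0.11 in all 6 genes, 4 of them above 0, with a median of 0.007 against -0.0001 over all genes tested. These signs were not stable, since edgeR and DESeq2 put 2 of the 6 above 0 and quantile normalization all 6.

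These genes did not carry the same precision. The 95% interval of the fold change was 0.890 to 1.11 for *Otog*, 0.905 to 1.15 for *Otogl* and 0.939 to 1.23 for *Otoa*, from limma's fit with 3 libraries per genotype. It was wider for *Tectb* (0.747 to 1.26) and *Ceacam16* (0.702 to 1.44), and for *Tecta* it ran from 0.595 to 1.70. A change of *Tecta* of a size within that range was not detectable with these libraries. The largest difference was that of *Otoa* (log2 fold change 0.11, SE 0.0867, adjusted p = 0.999, limma). It came to 0.028 when *Gfi1+/+* replicate 2 was left out and to 0.18 when replicate 3 was. In this bulk tissue, fewer cells of a type and less RNA per cell cannot be told apart.

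*Gfi1+/+* replicate 1 was left out because of its nervous tissue transcripts. The log2 fold change was then -0.003 for *Tecta*, 0.02 for *Tectb*, -0.001 for *Otog*, 0.05 for *Otogl*, 0.06 for *Ceacam16* and 0.11 for *Otoa*, each with an adjusted p of 1.0 from limma's test. The direction for *Tecta* depended on other single libraries as well. Leaving out *Gfi1+/+* replicate 3 gave -0.37, and leaving out *Gfi1+/+* replicate 2 gave 0.40. Without *Gfi1+/+* replicate 3, *Tectb* (-0.25) and *Otoa* (0.18) had an unadjusted p-value under 0.05, as did 16.2% of all genes in that fit, and none of the 6 genes an adjusted one, while the number of all genes with an adjusted p-value under 0.05 went from 4 to 48 (limma).

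Ratios between these genes, which do not depend on the size factors, did not separate the genotypes either. The difference in the log2 ratio, *Gfi1cre/+* minus *Gfi1+/+*, was 0.05 for *Tecta* to *Tectb*, -0.04 for *Otog* to *Otogl*, 0.02 for *Tecta* to *Otog* and -0.002 for *Ceacam16* to *Tecta*. It was 0.08 for *Otoa* to *Strc*, the gene of stereocilin, a protein related to otoancorin that links HC stereocilia to the tectorial membrane. The exact permutation p was at least 0.6 for each of the 5 ratios (two-sided, 1.0 after adjustment), where 3 libraries against 3 cannot give less than 0.1.

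**Figure D4:**
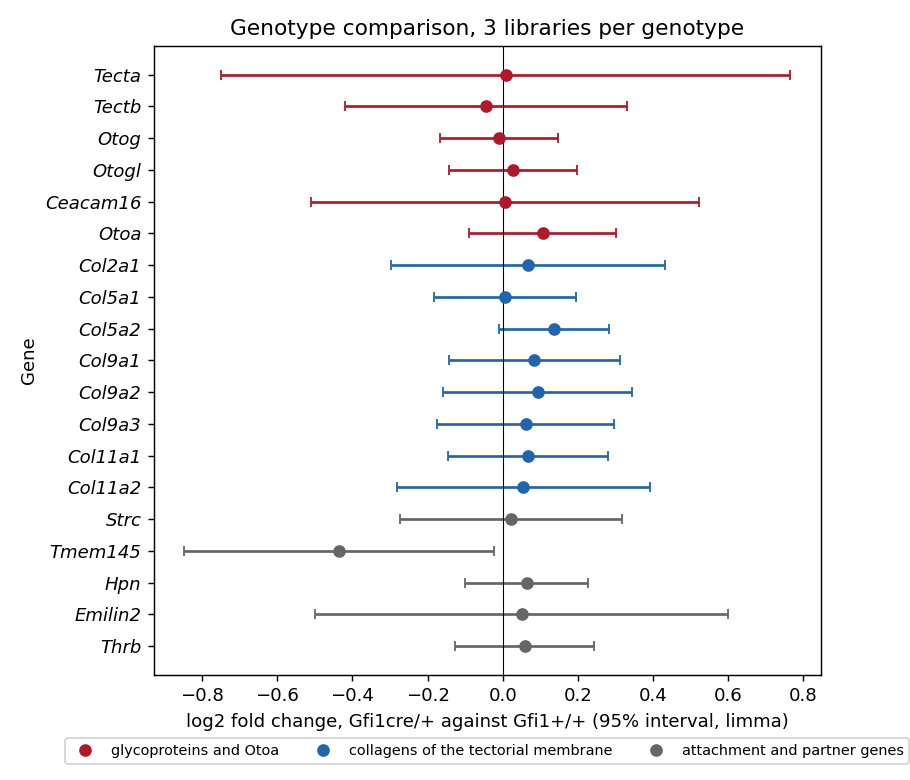
Log2 fold change of each gene, *Gfi1cre/+* against *Gfi1+/+*, on the x axis, with its 95% interval from limma as the bar (3 libraries per genotype), for the 6 genes in red, the collagens in blue and the attachment and partner genes in grey. The interval of *Tmem145* alone does not include 0, and that of *Tecta*, from -0.75 to 0.77, is among the widest.

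The other main component of the tectorial membrane is collagen, chiefly types II, V, IX and XI, which are also the collagens of cartilage and so are made by other tissue around the duct. Of 8 such genes, none had an adjusted p-value under 0.05, where 0.0277% of all genes did (limma). None had an unadjusted p-value under 0.05 either, where 3.04% of all genes did. The libraries of the genotypes overlapped in all 8, and 7.52% of all genes did not overlap. Their median log2 fold change was 0.07, against -0.0001 over all genes tested, and all 8 fold changes were above 0, from 0.01 for *Col5a1* to 0.14 for *Col5a2*. That direction rested on 1 library. Without *Gfi1+/+* replicate 1, in which all 8 collagens had their lowest *Gfi1+/+* value, the median was -0.0001 and 4 of the 8 were above 0. Leaving out *Gfi1+/+* replicate 3 instead gave a median of 0.15 with all 8 above 0. In that fit 3 of the 8 had an unadjusted p-value under 0.05, as did 16.2% of all genes, and none an adjusted one (limma).

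*Col2a1*, which encodes type II collagen, had 274391, 332150 and 375917 normalized reads in *Gfi1+/+* and 328077, 342586 and 350492 in *Gfi1cre/+*. *Col11a2*, a chain of type XI collagen, had 111146, 117826 and 159921 in *Gfi1+/+* and 140282, 128143 and 130596 in *Gfi1cre/+*. As for *Otog*, the highest *Gfi1+/+* value was that of replicate 3, and this held for 6 of the 8 collagens. The SD of the collagens on the log2 scale was between 0.0624 and 0.282 in *Gfi1+/+* and between 0.00745 and 0.0928 in *Gfi1cre/+*, below that of *Tecta* in each genotype.

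The attachment and partner genes, 5 in all, act in the attachment of the membrane or in cochlear matrix formation. None had an adjusted p-value under 0.05, only *Tmem145* had an unadjusted p-value under 0.05, against 3.04% of all genes, and their median log2 fold change was 0.05 (limma). *Strc* had 564, 407 and 576 normalized reads in *Gfi1+/+* and 547, 470 and 539 in *Gfi1cre/+*, with its lowest value, like that of *Otoa*, in *Gfi1+/+* replicate 2. *Hpn*, which encodes the protease hepsin, had a log2 fold change of 0.06, and *Thrb*, a thyroid hormone receptor needed for hearing, one of 0.06.

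*Tmem145*, whose product takes part in the stereociliary links of outer HCs, had 139, 109 and 107 normalized reads in *Gfi1+/+* and 110, 82.6 and 71.7 in *Gfi1cre/+*. The values of the genotypes overlapped by a narrow margin, at *Gfi1cre/+* replicate 1. The log2 fold change was -0.43 (95% interval -0.85 to -0.02, adjusted p = 0.999, limma), so the gene did not pass the adjusted threshold. It stayed below 0 with each library left out, from -0.60 to -0.30, and rests on between 76 and 126 reads per library. The unadjusted p-value was above 0.05 with edgeR (0.053, TMM), DESeq2 (0.071) and limma after quantile normalization (0.055). In limma it was also above 0.05 without *Gfi1+/+* replicate 1 (0.135) and without *Gfi1cre/+* replicate 2 (0.107) or 3 (0.155). HC markers summed to between 10041 and 10332 normalized reads in *Gfi1cre/+* and between 10304 and 11517 in *Gfi1+/+*, with none of the 10 at 0. With equal weight per gene, their mean log2 deviation was 0.10, -0.02 and 0.11 in *Gfi1+/+* and -0.02, -0.10 and -0.07 in *Gfi1cre/+*. The part of HC markers in the *Tmem145* difference was not tested.

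*Emilin2*, which encodes a matrix glycoprotein of the basilar membrane, was the partner gene that varied most between *Gfi1+/+* mice. It had 31971, 19004 and 43369 normalized reads in *Gfi1+/+* and 31383, 28773 and 32401 in *Gfi1cre/+*. Its lowest and highest libraries were those of *Ceacam16*, and the reverse of those of the tectorins. The SD on the log2 scale was 0.602 in *Gfi1+/+*, larger than in 97.0% of genes, and 0.0886 in *Gfi1cre/+*.

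Among relatives of the 6 genes, few were listed. Of 12 genes taken as relatives of the tectorins by their zona pellucida domain, a polymerization module, 5 were listed, namely *Umodl1*, *Eng*, *Tgfbr3*, *Zpld1* and *Matn1*, all at 40 normalized reads or more in at least 1 library. *Matn1* encodes a matrilin, which is not known to hold this domain, and was on the list by mistake. *Umodl1* had 4254, 2381 and 5430 normalized reads in *Gfi1+/+* and 4061, 3521 and 3584 in *Gfi1cre/+*, again lowest in *Gfi1+/+* replicate 2 and highest in replicate 3. Its SD of 0.611 in *Gfi1+/+* was larger than in 97.1% of genes. The tectorins ran the other way in these libraries. So did *Zpld1*, with 132, 154 and 50.6 normalized reads in *Gfi1+/+* and 73.1, 99.4 and 137 in *Gfi1cre/+*. Its SD of 0.859 in *Gfi1+/+* was larger than in 98.4% of genes. *Eng* and *Tgfbr3* were highest of *Gfi1+/+* in replicate 3 and lowest in replicate 1.

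Of 6 gel-forming mucin and von Willebrand factor genes, the family to which otogelin belongs by domain structure, *Vwf* and *Muc5b* were listed, and *Muc5b* had at most 3.55 normalized reads. *Ceacam1* was the only one listed of 5 other genes of its family, at between 494 and 669 normalized reads. Of the relatives of otoancorin, *Strc* and *Msln* were listed and *Mslnl* was not.

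Otoconia, the mineral of the vestibular organs, have a protein matrix of their own, and its genes were followed beside the tectorins. All 5 of its list were listed, and they did not share a pattern. *Oc90*, the main otoconial protein, had 10178, 14154 and 9908 normalized reads in *Gfi1+/+* and 9679, 11804 and 11733 in *Gfi1cre/+*, and *Otol1*, a collagen-like otoconial protein, had 741, 784 and 751 in *Gfi1+/+*. Both were highest of *Gfi1+/+* in replicate 2, as were the tectorins. *Otop1*, needed for otoconia to form, was highest in replicate 3 with 0, 7.33 and 19.0 normalized reads in *Gfi1+/+*. *Sparc*, a widely expressed matrix protein, was also highest there with 158596, 166436 and 199725, and its relative *Sparcl1* was lowest in replicate 2 with 57193, 52490 and 53582. The vestibular non-sensory markers (4 of 4 listed, with *Otop1* at 3 reads or fewer in a library) summed to between 10729 and 15099 normalized reads in *Gfi1+/+* and between 10477 and 12681 in *Gfi1cre/+*. *Oc90* made up most of this sum in each library.

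Bone markers (6 of 6 listed, none at 0) moved against the tectorins within *Gfi1+/+*. They summed to 27076, 22960 and 49288 normalized reads in *Gfi1+/+*, and 5 of the 6 were higher in replicate 3 than in replicate 2. In *Gfi1cre/+* they summed to 36935, 38998 and 41031, lowest in replicate 1, as were both tectorins. Bone was not alone in this. Higher in *Gfi1+/+* replicate 3 than in replicate 2 were 6 of 7 erythroid, 5 of 6 epithelial and 7 of 10 HC markers. Of the neuron markers, 0 of 7 were. The share over all genes tested was not computed.

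The medial epithelium makes much of the tectorial membrane. With equal weight per gene, its markers ran with the tectorins between *Gfi1+/+* replicates 2 and 3, but not within *Gfi1cre/+*. Averaged over the 6 genes, the log2 deviation was 0.49, 0.23 and -0.18 in *Gfi1+/+*, and 2 of the 6 were higher in replicate 3 than in replicate 2. It was highest in replicate 1, unlike *Tecta*. In *Gfi1cre/+* it was -0.15, -0.21 and -0.18, lowest in replicate 2, where both tectorins were highest of that genotype. There, 4 of the 6 were higher in replicate 1 than in replicate 2. The list includes *Crabp1*, with 12, 5 and 2 reads in *Gfi1+/+* and 1 read in each *Gfi1cre/+* library. Its deviations have a large part in these means. *Fst*, which encodes the activin inhibitor follistatin and is a member of this list, had 323, 494 and 288 normalized reads in *Gfi1+/+* and 355, 367 and 383 in *Gfi1cre/+*, so both of its *Gfi1+/+* extremes were those of the tectorins. *Fabp7*, a fatty acid binding protein gene, had 1558, 1122 and 878 in *Gfi1+/+*, and *Calb1*, which encodes a calcium buffer, had 820, 792 and 610, both lowest in replicate 3. In *Gfi1cre/+*, *Fabp7* had 1081, 873 and 997 and *Calb1* 769, 759 and 687, both highest in replicate 1. The summed level was 48358, 42476 and 43422 normalized reads in *Gfi1+/+* and did not follow the order of the mean deviation there. *Epyc* and *Itih5* made up most of the sum and were lowest of *Gfi1+/+* in replicate 2. In *Gfi1cre/+* the sum was 43709, 42675 and 43019, in the same order as the mean deviation.

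The supporting cell list (9 of 10 listed, without *Hes5*) had mean deviations of 0.085, 0.056 and -0.062 in *Gfi1+/+*, and 4 of the 9 were higher in replicate 3 than in replicate 2. Its sum was between 25471 and 27322 normalized reads in *Gfi1+/+* and between 25431 and 26544 in *Gfi1cre/+*. *Oc90*, *Fst*, *Fabp7* and *Calb1* were picked out after their values had been seen. The part of medial epithelium, bone, vestibular or other tissue in the spread of the tectorins was not tested.

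The mean of the 6 centred log2 profiles was flat, with an SD of 0.0996 over the 6 libraries, since the opposite deviations cancelled. It was lowest at -0.10 in *Gfi1+/+* replicate 3 and highest at 0.16 in *Gfi1cre/+* replicate 2. The genes closest to this mean profile, among 7832 others with at least the same SD, were *Scai*, *Lig1*, *Nufip1*, *Ypel1* and *Gm6493*, with root mean square differences on the log2 scale between 0.0139 and 0.0339. This likeness is a description over 6 libraries. *Scai* had 443, 439 and 393 normalized reads in *Gfi1+/+* and 406, 479 and 419 in *Gfi1cre/+*.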

How the data were processed

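Cochlear duct RNA of 3 *Gfi1+/+* and 3 *Gfi1cre/+* libraries was measured. The authors aligned paired reads to mm10 with Tophat, retained unique alignments, counted genes with HTSeq and required at least 40 reads. Versions, annotation and strand setting are not given in the sources used here. The deposited signal is described as quantile-normalized, but 100% of values in each column were whole multiples of 1 step (within 0.0051), that is, reads divided by a median-of-ratios factor. A count of 0 allows up to 3 reads. Column names gave genotype and replicate number.

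The 14455 of 14865 genes reaching 40 normalized reads in any library were fitted with limma 3.58.1 (R 4.3.3) on log2(value + 1), genotype only, eBayes with trend, two-sided, Benjamini-Hochberg over all genes tested. This scale understates fold changes of low genes. Exact permutation tests were used for ratios and relations. Lengths came from GENCODE M21, matched for 14791 genes. The steps were tested on simulated counts. Alternatives were other pseudocounts (0.1 and 10), filters, variance settings, normalizations, edgeR 4.0.16 and DESeq2 1.42.0 on recovered reads, a replicate block and each library left out. The length of the longest coding transcript was added after the values had been seen. Genes named are the 6, the collagen, partner, relative and marker lists and the 5 closest profiles. *Oc90*, *Fst*, *Fabp7*, *Calb1*, *Umodl1*, *Zpld1* and *Gm19345* were singled out after their values had been seen. Members and lists were chosen with earlier results of these data known. The samples are separate cochlear samples, stated as biological triplicates. The hearing, flow cytometry and RT-qPCR data were not analysed here.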

Additional observations from a re-analysis of the deposited data

How the results depend on the processing

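None of the 6 genes passed the threshold under any of 107 alternatives for single genes, of which 20 turned the direction, and the lowest adjusted p among them was 0.184. With edgeR (TMM, deposited size factors) and DESeq2 the log2 fold change of *Tecta* was -0.0934, -0.0931 and -0.0932, that of *Ceacam16* -0.0414, -0.0419 and -0.0430, that of *Col5a1* -0.000421, -0.000938 and -0.00101 and that of *Emilin2* -0.0267, -0.0276 and -0.0275. Quantile normalization gave 0.0563 for *Tectb* and 0.00980 for *Otog*. The cause of these turns was not tested. *Tectb* came to 17536 normalized reads per kilobase with the longest transcript, coding or not, and *Otoa* to 2074 with the longest transcript and 2390 with the longest coding one, by construction of the lengths.

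Without single libraries, the range of the log2 fold change was from -0.37 to 0.40 for *Tecta*, -0.25 to 0.10 for *Tectb*, -0.0678 to 0.0384 for *Otog*, -0.0483 to 0.0880 for *Otogl*, -0.27 to 0.23 for *Ceacam16* and 0.028 to 0.18 for *Otoa*. It ran from -0.0545 to 0.173 for *Col2a1*, -0.0865 to 0.0846 for *Col5a1*, -0.0129 to 0.125 for *Col9a3*, -0.0466 to 0.216 for *Col11a2*, -0.14 to 0.11 for *Strc* and for the median of the attachment and partner genes, and -0.27 to 0.32 for *Emilin2*. The difference in log2 ratio ran from -0.12 to 0.30 for *Tecta* to *Tectb*, -0.112 to 0.0474 for *Otog* to *Otogl*, -0.0142 to 0.179 for *Otoa* to *Strc*, -0.41 to 0.47 for *Tecta* to *Otog* and -0.67 to 0.60 for *Ceacam16* to *Tecta*. *Ceacam16* and *Tmem145* were not tested under the filter on a mean of 200.

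Replicate numbers are shared but did not pair the libraries, with correlations of same-numbered libraries of -0.094, 0.107 and -0.033. With the replicate as a block the log2 fold change of *Otoa* was 0.11 and 0 of the 6 genes were called, so no call changed. Only 3 libraries per genotype, and for *Ceacam16* as few as 79 reads, limit these comparisons. Over all genes, the number with an adjusted p under 0.05 was 4 with limma and edgeR, 10 with DESeq2, 0 under the filter on a mean of 200, 48 without *Gfi1+/+* replicate 3, 8 without *Gfi1+/+* replicate 2 and 0 without *Gfi1cre/+* replicate 2 or 3.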
